A study of Mus musculus with 12 samples.

Results

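The genes described here encode the proteins of the cytosolic ribosome, measured by RNA-seq in *Pomc*-eGFP positive cells sorted from the anterior pituitary of mice. Members were the rows whose symbol has the form Rpl or Rps followed by a number, with or without a final a, l or x, together with Rplp0, Rplp1, Rplp2 and Rpsa. Of the 55304 genes in the table, 83 symbols had this form. Rps4l, Rpl32l and Rpl6l are annotated as pseudogenes and were left out, so 80 members remained: 30 of the small subunit, 46 of the large subunit and 4 paralogs (Rpl3l, Rpl10l, Rpl39l and Rps27l). The rule misses core genes whose symbols have another form, of which Rps3a1, Fau and Rack1 are given separately. A filter on low values (above 0.1 in at least 3 libraries) was passed by 79 members, with Rpl10l the exception.

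The 12 libraries came from 4 groups of 3 pools of male *Pomc*-eGFP mice on a C57Bl6/J background, 8 weeks old at the outset. In these mice the *Pomc* promoter drives eGFP, which every group carried. Control mice drank plain water, DEX mice had 2.5 microg/ml dexamethasone in their water for 4 weeks, and the recovery groups had the same course and then plain water for 7 days (1 week recovery) or 28 days (4 weeks recovery). A pool held the pituitaries of 2 or 3 mice, so the spread between libraries is that between pools and not between single animals.

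Ribosomal proteins and ribosomal RNAs assemble in the nucleolus into a small subunit, which decodes mRNA, and a large subunit, which joins amino acids. Their mRNAs are among the most abundant of any cell, and most start with a cytosine followed by a run of pyrimidines, the 5' terminal oligopyrimidine (TOP) tract, through which mTORC1 and Larp1 set how strongly they are translated. Corticotrophs secrete the peptide ACTH, cut from the Pomc precursor, and glucocorticoids such as DEX repress *Pomc*. The comparisons ask whether the genes of the ribosome changed under DEX and after its withdrawal.

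Because the members moved together across the libraries, 4 promoter stretches are shown for the sequence around the start of transcription. Each runs from 60 bases before the start to 15 bases from it, taken from RefSeq on GRCm38.p6. Capitals mark a run that begins with C within 5 bases of the start and continues in C or T, and the motif CCGGAAG, which ETS factors such as GABP recognise.
Rpl38, chr11:114668520-114668594, plus strand: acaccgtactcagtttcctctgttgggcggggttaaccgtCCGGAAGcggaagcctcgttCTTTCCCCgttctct
Rps6, chr4:86857353-86857427, minus strand: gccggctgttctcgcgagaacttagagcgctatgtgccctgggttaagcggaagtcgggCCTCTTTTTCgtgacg
Rpl28, chr7:4792905-4792979, plus strand: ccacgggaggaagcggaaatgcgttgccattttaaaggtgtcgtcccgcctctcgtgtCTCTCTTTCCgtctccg
Rpl10a, chr17:28328411-28328485, plus strand: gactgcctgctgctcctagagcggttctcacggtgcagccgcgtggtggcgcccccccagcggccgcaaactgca
Rpl38, Rps6 and Rpl28 hold such a run. Rpl10a, whose levels did not follow those of the other members, has none that begins within 5 bases of the start, nor by this rule have most of the members' promoters searched. The Rpl10a window does hold a run of C that begins further before the start and is not marked. A RefSeq promoter of 300 bases was at hand for 60 members and 32851 genes or starts in all. C followed by 4 pyrimidines, within 5 bases of the start, stood in 43.3% of the members' promoters and 18.3% of all. The more specific CTTTC, a form of the same tract, stood there in 9 of 60 and in 1.66% of all. On either strand, CCGGAAG was present in 38.3% of the members' promoters against 8.86% of all, GCCATNTT, which YY1 recognises, in 16.7% against 6.05%, and GGGCGG, an Sp1 box, in 36 of 60 against 35.7%. Start sites differ between RefSeq and GENCODE, for these 4 genes by 0 (Rpl10a) to 46 bases (Rpl38). A missing tract thus says only that no such run begins within 5 bases of the RefSeq start.

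Reads on genes numbered 7719894 to 12848078 per library, and the members took 0.733% to 1.52% of them. *Pomc* ranged from 34562 to 74260 normalised counts in control and from 4241 to 8521 in DEX, and its recovery values were 43612 to 284740 at 1 week and 48189 to 80216 at 4 weeks. *Gh*, the hormone of somatotrophs, was present at 67563 to 265851 and exceeded *Pomc* in 10 of the 12 libraries, so RNA of other pituitary cells was part of what was measured. In these bulk samples a smaller share of a cell type and less RNA per cell cannot be told apart.

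The summed level of the 80 members, in normalised counts (CPM of the TMM-scaled library), was 7595, 8337 and 14110 in the control pools, 6042, 6917 and 9806 in DEX, 9253, 14938 and 15333 at 1 week recovery and 8163, 10032 and 11384 at 4 weeks recovery. Control had a mean of 10014 ± 3566 (SD, n = 3) and DEX one of 7588 ± 1970, while the recovery groups had 13175 ± 3402 (1 week) and 9859 ± 1617 (4 weeks). DEX was thus the lowest group and 1 week recovery the highest, with a ratio of their means of 1.74, yet every pair of groups overlapped. Within a group the highest pool stood 1.39 to 1.86 times above the lowest. Pool 3 was the highest in each group and pool 1 the lowest.

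**Figure D1:**
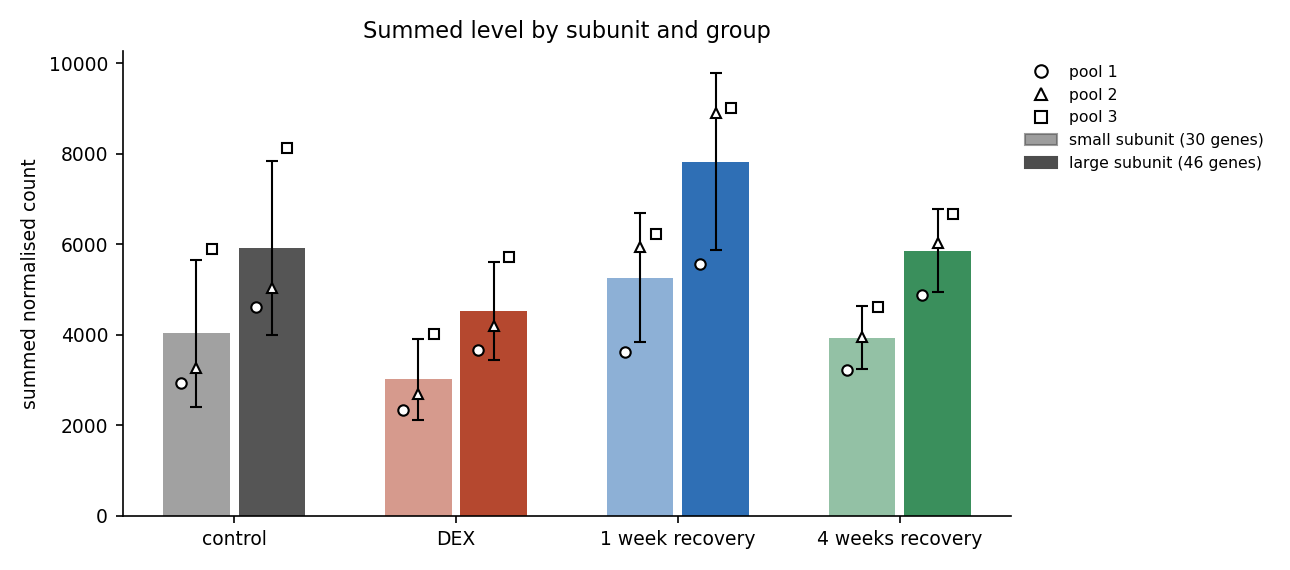
Summed normalised counts of the 30 small subunit and 46 large subunit genes (y axis) in the 4 groups; bars are means, error bars SD and symbols the 3 pools. DEX has the lowest means (3017 and 4526) and 1 week recovery the highest (5266 and 7831), and pool 3 lies on top in every group.

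The members changed level as a block from library to library. Among the 74 members with a mean of at least 10, the SD of a member's log2 level over the 12 libraries had a median of 0.47. After the median deviation of the members in each library was taken off, it was 0.13. Control pool 3 was the highest of its group for 74 of 74 members, DEX pool 3 for 72, and pool 3 of the recovery groups for 47 (1 week) and 68 (4 weeks). Median deviations ran from -0.70 in DEX pool 1 to 0.68 in 1 week recovery pool 3. The order of the members by level was also kept, with a Spearman rho between any 2 libraries, across these genes, of at least 0.90. The small to large subunit ratio of summed levels lay between 0.634 and 0.727 in all 12 libraries, with means of 0.670 ± 0.050, 0.661 ± 0.036, 0.669 ± 0.021 and 0.669 ± 0.020 (SD, n = 3) for control, DEX, and the recovery groups of 1 and 4 weeks.

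**Figure D2:**
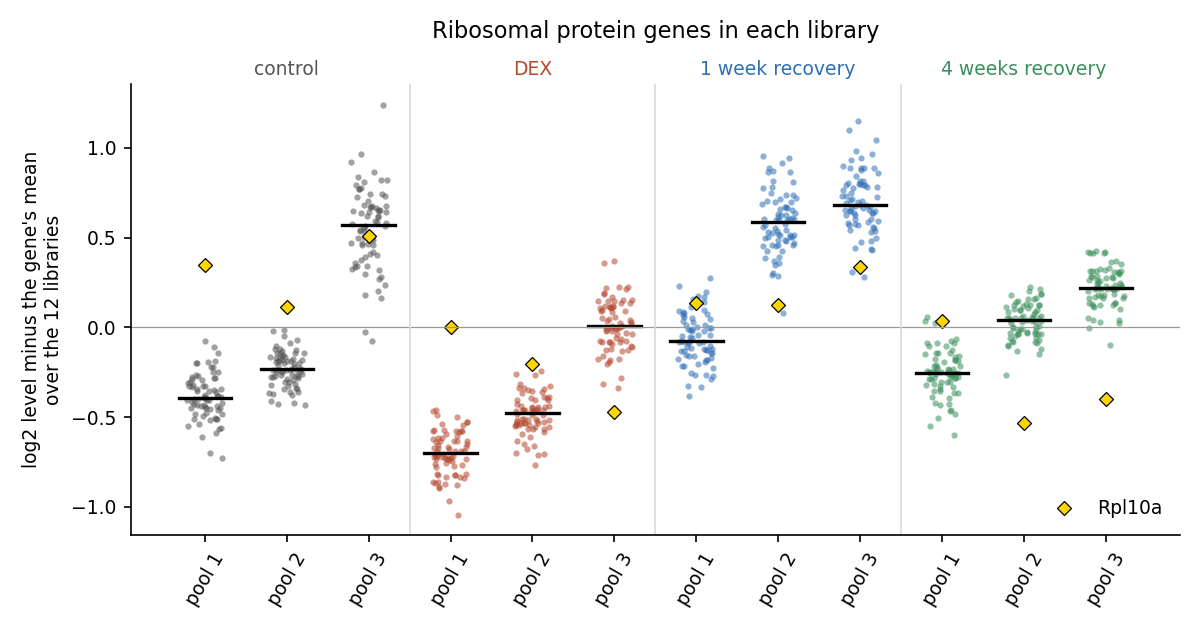
Log2 level of 74 ribosomal protein genes minus each gene's mean over the 12 libraries (y axis), by pool and group; circles are genes, bars their median and diamonds Rpl10a. Medians run from -0.70 (DEX pool 1) to 0.68 (1 week recovery pool 3), and Rpl10a lies far from the bar in several pools.

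No member differed among the 4 groups by limma's F test with Benjamini-Hochberg adjustment over 24736 genes. The test called 0.315% of all genes, and the smallest adjusted p of a member was 0.360, that of Rpl23. At an unadjusted p under 0.05 there were 9 members of 79 against 9.21% of all genes. This count was 43 without control pool 3 (10.6% of all genes), 41 without 1 week pool 1 (11%), 29 without DEX pool 3 (7.67%) and 0 without 1 week pool 3 (11.9%). It also fell to between 1 and 5 without control pool 2, DEX pool 1, DEX pool 2, 1 week pool 2, 4 weeks pool 2 or 4 weeks pool 3. In those 6 refits the share of all genes was 6.61% (without DEX pool 1) to 10.7% (without 1 week pool 2). The same test on each pair of groups called 0 members in all 6 comparisons, where it called 0.121% of genes for DEX against control, 0.433% for 1 week recovery against DEX and 0.873% for 4 weeks recovery against DEX. It called 0% for either recovery group against control and for 4 weeks against 1 week recovery. At an unadjusted p under 0.05, DEX against control held 1 member of 79 (6.8% of all genes), 1 week recovery against control 5 (3.79%), 4 weeks recovery against control 1 (6.35%) and 1 week recovery against DEX 65 (10.8%). For 4 weeks recovery the counts were 2 against DEX (9.94%) and 3 against 1 week recovery (5.47%). By this fit the members' share was below that of all genes in each comparison but 1 week recovery against DEX and against control. Several alternatives turned this order over, of which some are given. The replicate block (the pool number as a term of the fit) did so for DEX against control. It also did so for 4 weeks against DEX and against 1 week recovery, and array weights for 4 weeks against DEX. Plain CPM, without TMM factors, did so for 1 week against DEX (3.8% of members, 15.3% of all genes) and against control (0%, 4.17%). Leaving out DEX pool 3 did so for DEX against control (12.7%, 4.97%) and 4 weeks against DEX (21.5%, 8.64%). Leaving out 1 week pool 1 did so for 4 weeks against 1 week recovery (31.6%, 6.88%). edgeR called none in any comparison. DESeq2 called 1 member of 79 by its test over the 4 groups, where it called 2.97% of all genes, and 4 for 1 week recovery against DEX, where it called 2.32%. The comparisons share groups and are not independent of each other.

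The widest difference was between 1 week recovery and DEX. Here 77 of 79 members and 51.8% of all genes were higher at 1 week, with a median log2 difference of 0.80 (25th to 75th percentile 0.71 to 0.86) against 0.03 over all genes. A log2 difference of at least 0.5 was seen for 75 of 79 members and 22.8% of all genes. An unadjusted p under 0.05 with a higher level at 1 week was reached by 65 of 79 members and 5.19% of all genes, and the pools did not overlap, with 1 week above DEX, for 26 of 79 members and 6.97% of all genes. The smallest adjusted p was 0.116 by limma with Benjamini-Hochberg adjustment. The small subunit (median 0.81, 30 of 30 higher) and the large subunit (median 0.79, 45 of 46 higher) had like values.

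Rpl23, which sits where the subunits meet (chr11:97777527-97782437, GRCm38), had 47.6, 55.02 and 62.1 normalised counts in DEX, 83.6, 97.2 and 146 at 1 week, 71.7, 79.1 and 85.7 at 4 weeks and 61.2, 66.3 and 92.9 in control. All 1 week pools lay above all DEX pools, as did all 4 weeks pools. The log2 difference between 1 week and DEX was 0.95 ± 0.26 (SE) with a 95% interval of 0.41 to 1.49 and an adjusted p of 0.116 by limma. Rpl38, whose loss in mice alters the patterning of the axial skeleton (chr11:114668524-114672331), had the largest difference among the members, 1.07 ± 0.33 (SE), adjusted p = 0.186 by limma. Its values were 51.8, 58.3 and 83.4 in DEX and 111, 133 and 159 at 1 week, with 66.4, 74.0 and 154 in control and 64.6, 97.9 and 123 at 4 weeks. For Rpl38 too the 1 week and DEX pools did not overlap, while control pool 3 lay among those at 1 week.

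Rps6, the substrate of the S6 kinases downstream of mTORC1 (chr4:86854660-86857412), had 96.7, 103 and 132 in DEX, 147, 211 and 189.6 at 1 week, 126, 158 and 172 at 4 weeks and 115, 128 and 137 in control. Its 1 week pools stood above every control and every DEX pool, with a log2 difference from DEX of 0.72 ± 0.23 (SE), adjusted p = 0.212 by limma. Rpl4, which lines the exit tunnel, had 261, 284 and 285 in DEX, 333, 338 and 414 in control, 412, 483 and 436 at 1 week and 368, 401 and 369 at 4 weeks. DEX was below each of the other 3 groups without overlap, and the log2 difference from DEX was 0.68 ± 0.23 (SE) at 1 week, adjusted p = 0.235 by limma. By the exact permutation test on 1 gene, 3 pools against 3 cannot go below p = 0.1 (two-sided, unadjusted). Pools that do not overlap always give this value, as for Rpl23, Rpl38, Rps6 and Rpl4 between 1 week and DEX. It thus adds nothing to the lack of overlap, which 26 of 79 members had with 1 week higher (6.97% of all genes). Of the 4, Rpl23, Rpl38 and Rpl4 were chosen after their values were seen.

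The count of 65 (82.3%) moved both ways when single libraries were left out. It was 14 without DEX pool 1 (7.5% of all genes), 31 without DEX pool 2 (9.14%), 26 without 1 week pool 3 (11.4%) and 38 without 1 week pool 2 (12.2%). The share of members rose to 93.7% without 1 week pool 1 (13% of all genes) and 91.1% without DEX pool 3 (10.2%). It was 89.9% without control pool 3 (12.4%) and 86.1% without control pool 1 (10.7%). Without control pool 2 or any 1 of the 4 weeks pools it was 69.6% to 75.9% (9.8% to 10.4% of all genes). The median difference stayed between 0.63 and 1.04 and the number of members higher between 76 and 78. With plain CPM, without the TMM factors, the median of all genes moved to -0.30 and that of the members was 0.42, which is 0.72 above all genes. An unadjusted p under 0.05 was then reached by 3 members (3.8%) against 15.3% of all genes, so the members' share fell below that of all genes.

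Under DEX the members were at or below control. A log2 difference above 0 was seen for 3 of 79 members and 47.8% of all genes, and the members had a median log2 difference of -0.38 (25th to 75th percentile -0.44 to -0.30) against -0.02 over all genes. The 3 above 0 were Rpl39 and the barely detected Rpl39l and Rpl3l. A log2 difference of at most -0.5 was seen for 11 of 79 members and 21.4% of all genes, a smaller share of the members than of all genes. The pools did not overlap, with DEX lower, for Rpl4 and Rpl10a (2 of 79; 6.23% of all genes). The lowest differences among members with a mean of at least 10 were those of Rps12, -0.67 ± 0.42 (SE), Rps21, -0.66 ± 0.38, and Rps29, -0.62 ± 0.33, all small subunit proteins. At the other end stood Rpl35 (-0.16), Rpl15 (-0.13) and Rpl39 (0.11 ± 0.32), a protein of the exit tunnel. None passed the test: limma's adjusted p was 0.686 at the lowest. Rps12 shows how far 1 pool weighed, with 42.9, 41.9 and 134 in control and 31.0, 36.3 and 53.3 in DEX. Without control pool 3 the median difference of the members was -0.09, and it was -0.23 without DEX pool 1 and -0.59 without DEX pool 3. In plain CPM it was -0.23, where the median of all genes was 0.11.

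At 1 week recovery 75 of 79 members and 50.2% of all genes were above control, with a median log2 difference of 0.41 (25th to 75th percentile 0.33 to 0.49) against 0.00 over all genes. The exceptions were Rpl10a and the barely detected Rpl24, Rps10 and Rpl39l. A difference of at least 0.5 was seen for 16 of 79 members and 14.9% of all genes. Pools did not overlap, with 1 week higher, for Rpl39, Rps6 and Rpl15 (3 of 79; 3.47% of all genes). Rpl39 had 29.1, 34.3 and 49.9 in control and 50.3, 65.4 and 80.0 at 1 week, a log2 difference of 0.80 ± 0.32 (SE), the largest of the members. Rps2, a protein of the mRNA entry channel, followed with 0.66 ± 0.30 and Rps15a with 0.61 ± 0.33, while among members with a mean of at least 10 the smallest differences were those of Rpl10a (-0.13), Rplp2 (0.20) and Rps25 (0.20). The adjusted p by limma was 1.0 for every member. The 5 members at an unadjusted p under 0.05 became 56 without control pool 3 (5.57% of all genes) and 29 without 1 week pool 1 (6.33%). They became 0 without control pool 1 (3.42%) or 2 (3.07%). The count stayed at 5 without DEX pool 3 (3.73%) and was 1 to 3 without any other library (3.26% to 7.59%). The median was 0.72 without control pool 3, 0.67 without 1 week pool 1, 0.23 without control pool 1 and 0.26 without 1 week pool 3, and 0.19 in plain CPM, where that of all genes was -0.19.

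At 4 weeks recovery the members lay around control. Of 79 members 45 were above it, as were 49.7% of all genes, with a median log2 difference of 0.03 (25th to 75th percentile -0.05 to 0.09), and limma's lowest adjusted p was 0.701. The highest differences among members with a mean of at least 10 were Rps6 (0.25 ± 0.23, SE), Rpl3 (0.25 ± 0.29), which lies near the peptidyl transferase centre, and Rps27l (0.22 ± 0.25). The lowest were Rpl10a (-0.62 ± 0.23), Rpl28 (-0.25 ± 0.34) and Rps12 (-0.21 ± 0.42). The sign of the median was not stable. It was -0.17 without control pool 1, -0.11 without control pool 2, -0.09 without 4 weeks pool 3 and 0.31 without control pool 3, and -0.11 in plain CPM, where the median of all genes was -0.13. With array weights it was 0.23, with 75 of 79 members above control. Against DEX, 77 of 79 members were higher at 4 weeks (50.4% of all genes), with a median of 0.40, and the pools did not overlap for 6 of them, Rpl12, Rpl5, Rps25, Rpl4, Rps27l and Rpl23 (9.8% of all genes). Against 1 week recovery 3 of 79 were higher at 4 weeks (47.4% of all genes), with a median of -0.41, and pools lay apart, with 4 weeks lower, for 3 of 79 members, Rpl4 and Rpl10a among them (3.72% of all genes). The median against DEX was 0.22 without DEX pool 1 and 0.60 without DEX pool 3. In plain CPM it was 0.11, where the median of all genes was -0.25, so the members stood 0.35 above all genes (0.39 in the main fit). That against 1 week recovery was -0.66 without 1 week pool 1 and -0.25 without 1 week pool 3. With array weights it was -0.05, with 28 of 79 members higher at 4 weeks.

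**Figure D3:**
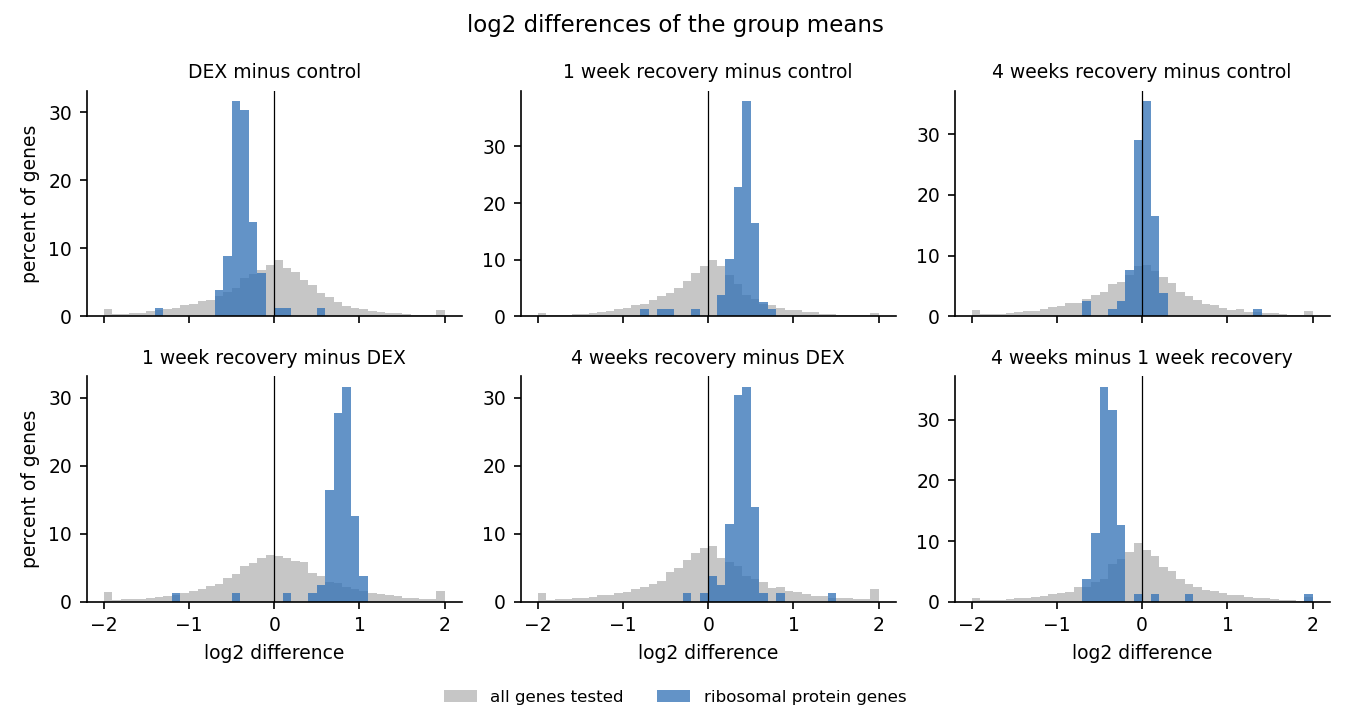
Percent of genes (y axis) by log2 difference between group means (x axis, bins of 0.1, values beyond 2 in the end bins) for the 79 ribosomal protein genes tested (blue) and all 24736 genes tested (grey), for 6 pairs of groups. The blue bars form a narrow peak inside the grey distribution, at a median of 0.80 for 1 week recovery minus DEX, -0.38 for DEX minus control and 0.03 for 4 weeks recovery minus control.

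Rpl10a forms the movable L1 stalk of the large subunit, through which spent tRNA leaves (chr17:28328471-28331033, 6 exons). It had 85.7, 72.9 and 96.0 normalised counts in control, 67.5, 58.5 and 48.4 in DEX, 74.0, 73.3 and 85.2 at 1 week and 68.9, 46.4 and 51.1 at 4 weeks. Every DEX pool and every 4 weeks pool was below every control pool, which for 4 weeks held for 1 of 79 members and 6.42% of all genes. In DEX and at 4 weeks pool 1 was its highest, whereas pool 3 was the highest for most members there. The log2 difference from control was -0.55 ± 0.23 (SE) in DEX and -0.62 ± 0.23 at 4 weeks, adjusted p = 0.686 and 0.701 by limma. The exact permutation p was 0.1 for each, the smallest 3 pools against 3 allow, which follows from the lack of overlap. Over the 12 libraries Pearson's r of its log2 level with the median of the other members was 0.24, the lowest among the 74 members with a mean of at least 10, where the median r was 0.97 and 67 were at 0.9 or more, against 1.52% of 9474 other genes at that level. These points share library and scaling, so r is a description. Of the 100-base stretches of the Rpl10a transcript, 75.9% also occur in other annotated transcripts, and 6.1% of its bases lie under a gene on the other strand.

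After Rpl10a the members that kept most spread of their own were Rps12, Rpl4, Rps24, Rpl15, Rpl39, Rpl5 and Rps6, with an SD of 0.22 to 0.28 after the members' median was taken off. In Rps6, Rpl15, Rpl4 and Rpl39 control pool 3, high for most members, was 0.37 to 0.65 below the members' median. At the close end stood Rpl11, with an SD of 0.06. The comparisons differed little between classes of members. The 28 members with a mean of at least 10 that carry snoRNA genes in their introns (29 of all 80, with 56 of the 1507 annotated snoRNA genes) had a median of 0.80 between 1 week and DEX, and so had the other 46. Members under 716 bases of transcript, the median, had 0.82 and the longer ones 0.78.

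By function, the acidic stalk proteins that recruit elongation factors behaved like the rest. Rplp0 had 194, 217 and 330.2 in DEX and 264, 564 and 434 at 1 week, Rplp1 79.1, 97.5 and 154 against 129, 263 and 227, and Rplp2 62.6, 74.0 and 107 against 98.6, 152 and 156. In each the highest DEX pool exceeded the lowest 1 week pool, and the log2 differences were 0.74 ± 0.33, 0.90 ± 0.36 and 0.74 ± 0.32 (SE). Rpl5 and Rpl11, which with 5S rRNA bind Mdm2, differed by 0.82 ± 0.30 and 0.78 ± 0.28, Rpl10, which joins the large subunit late, by 0.69 ± 0.29, and Rps27a, made as a fusion with ubiquitin, by 0.83 ± 0.29. In the small subunit Rpsa differed by 0.79 ± 0.36, Rps3, at the mRNA entry, by 0.77 ± 0.34 and Rps16 by 0.74 ± 0.33. Limma's adjusted p ranged from 0.257 to 0.438 for these 10 genes.

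Levels of different genes were compared per kb of the annotated coding transcript. Over the 76 core members the mean of the 12 libraries had a median of 164 normalised counts per kb, and its 25th and 75th percentiles were 89.4 and 237. The highest of the large subunit were Rpl41 (1049 ± 351, SD over the 12 libraries; 392 per kb over the union of its exons), which encodes the shortest ribosomal protein, Rpl13 (442 ± 113) and Rpl37a (399), and of the small subunit Rps14 (547 ± 198), Rps27 (542 ± 174) and Rps29 (431 ± 147). Rps14 and Rps27 differed by less than their spread. The lowest of the large subunit were Rpl24 (1.497), Rpl13a (7.08) and Rpl5 (50.4), and of the small subunit Rps10 (3.03), Rps20 (17.6) and Rps24 (37.9). In the annotation Rps20 has a single coding transcript of 3706 bases, the longest of the members, and over the union of its exons it had 16.03 per kb.

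Rpl24, Rps10 and Rpl13a were the 3 members for which over 50% of transcript bases lie inside exons of another gene on the same strand: 71.5% in Gm28037, 91.6% in RPS10-NUDT3 and 59.3% in Gm45713. Rpl19 had 10.7% and the other 76 had 0%. Per library Rpl24 had 0.127 to 2.24 normalised counts, Rps10 0.327 to 3.79 and Rpl13a 4.16 to 15.2. Outside the rule Rpl36al, with 63.1% in Gm49383, had 2.36 to 5.89. Counting that leaves out reads on more than 1 gene lowers such values, and whether it did here was not tested. Their fold changes are uncertain for this reason, and 71 of the 80 members share at least one 100-base stretch with other transcripts. The data also hold 309 rows whose symbol starts with Rpl or Rps and contains -ps, as pseudogene symbols do. Whether these rows hold the shared stretches was not tested. These rows summed to 44.1 to 122 per library, with 52.9, 58.4 and 96.2 in control, 44.1, 51.6 and 71.8 in DEX, 72.0, 82.0 and 122 at 1 week and 72.5, 78.6 and 79.9 at 4 weeks. On the other strand, genes cover over 50% of bases of 2 members, Rpl35 and Rpl23a; the library kit does not mark strand, so their reads cannot be told from those of these partners.

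**Figure D4:**
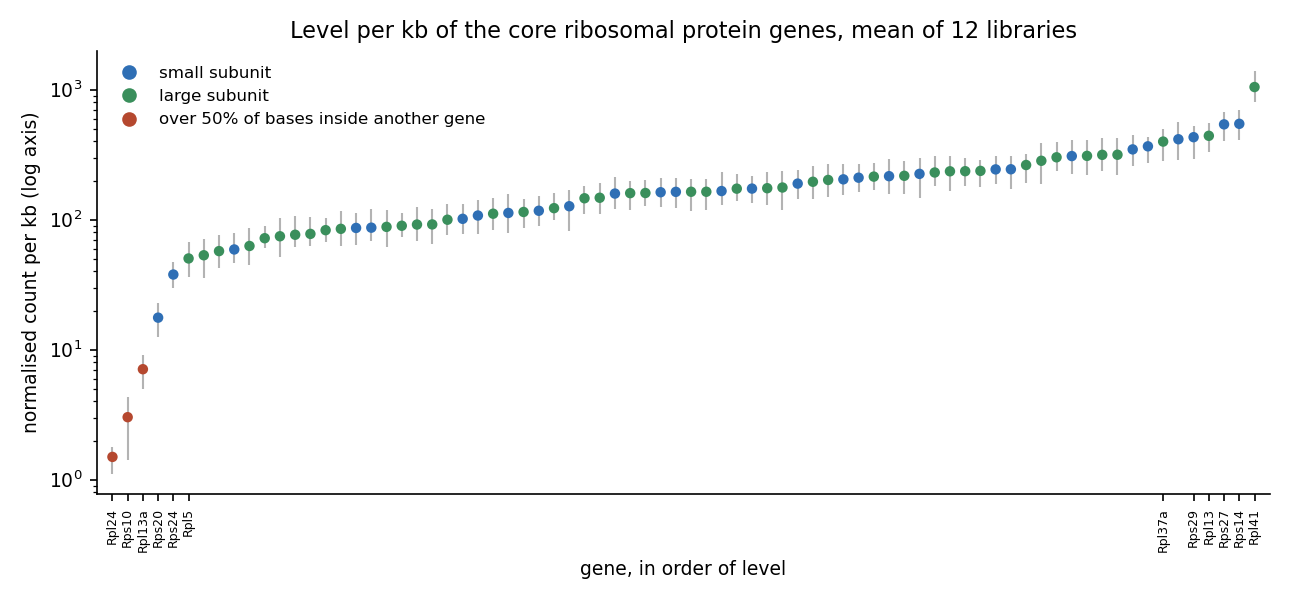
Level of the 76 core ribosomal protein genes in normalised counts per kb of transcript (y axis, log scale), ordered by level, with the genes described in the text named; points are means of 12 libraries and lines span the 4 group means. Levels run from 1.497 (Rpl24) to 1049 (Rpl41), and the 3 genes lying mostly inside another gene are the 3 lowest.

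Of the paralogs, Rps27l, a target of p53, was well detected, at 27.7% to 43.7% of the level of Rps27. It had 41.2, 41.0 and 52.5 in DEX, 69.7, 81.3 and 82.5 at 1 week, 53.4, 63.4 and 79.0 at 4 weeks and 44.5, 51.6 and 74.4 in control. All pools of both recovery groups were above all DEX pools, with a log2 difference of 0.80 ± 0.25 (SE) at 1 week, adjusted p = 0.189 by limma. Rpl3l, of muscle, Rpl39l and Rpl10l, of testis, had at most 8, 5 and 1 reads in a library, so no fold is given. Rpl22l1, outside the rule, was at 87.9% of Rpl22 per kb and had 35.0 to 56.5 normalised counts, with a log2 difference of 0.15 ± 0.24 (SE) between 1 week and DEX. Rpl7l1 had a mean of 47.1 normalised counts beside 129 for Rpl7, Rpl36al 4.13 beside 44.4 for Rpl36a, and the pseudogene Rps4l 42.5 beside 109.9 for Rps4x. Among the core genes outside the rule, Rps3a1 differed by 1.00 ± 0.30, Rack1 by 0.71 ± 0.36 and Fau by 0.62 ± 0.31. Limma's adjusted p for these 3 was 0.179 or more.

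Other genes of translation were taken as lists. The 16 translation factors and partners with TOP mRNAs had a median log2 difference of -0.15 in DEX against control and 0.39 between 1 week and DEX, where 16 of 16 were higher and 0 passed limma's test. Eef1a1, which brings aminoacyl-tRNA to the ribosome, had 684, 764 and 923 in DEX, 945, 1537 and 1539 at 1 week, 889, 1030 and 1113 at 4 weeks and 819, 920.0 and 1257 in control. Its 1 week pools were all above DEX, by 0.74 ± 0.32 on the log2 scale. The 27 ribosome biogenesis factors had a median of 0.01 between 1 week and DEX (14 higher, 13 lower) and the 12 genes of RNA polymerase I one of -0.08 (5 higher, 7 lower), with 0 called in any comparison. The 77 mitochondrial ribosomal protein genes tested, of 78, had 0.23 (69 higher), with 0 called there and 1 lower at 4 weeks against DEX, Mrps6 (-1.51, adjusted p = 0.0349 by limma).

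Of 17 genes of mTORC1, its regulators and outputs, 2 fell between DEX and 1 week recovery by limma's adjusted p (0.433% of all genes called). Of these 2, Rptor also fell between DEX and 4 weeks (0.873% of all genes called). Limma's F test over the 4 groups called 0 of the 17, with a smallest adjusted p of 0.0836. Rptor, the scaffold of mTORC1, had 60.5, 43.6 and 42.6 in control, 67.8, 57.1 and 102 in DEX, 27.7, 35.0 and 29.0 at 1 week and 32.2, 34.4 and 25.4 at 4 weeks. All DEX pools were above all recovery pools, by a log2 difference of -1.27 ± 0.26 (SE) at 1 week (adjusted p = 0.0487) and -1.27 at 4 weeks (adjusted p = 0.0358). Klf15, which glucocorticoids induce, had 50.8, 35.9 and 65.8 in DEX, 20.9, 3.70 and 11.7 at 1 week and 15.5, 23.6 and 26.3 in control. Its log2 difference between 1 week and DEX was -2.34 ± 0.47 (SE; adjusted p = 0.0378 by limma). The list's median was -0.33 in this comparison. It holds mTORC1 genes together with regulators and outputs, so this median gives no direction for the pathway.

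Some other measures moved with the members, and some moved against or apart from them. Among other protein-coding genes with a mean of at least 10, the 619 with transcripts up to 1000 bases had a median log2 difference of 0.32 between 1 week and DEX, the 1999 from 1000 to 2000 bases 0.13, the 3678 from 2000 to 4000 bases -0.11 and the 2713 longer ones -0.20. For DEX against control the same 4 classes had -0.18, -0.06, 0.11 and 0.14. The median transcript of the members has 716 bases. By library the class up to 1000 bases deviated by -0.38 in DEX pool 1, 0.36 in control pool 3 and 0.36 in 1 week pool 2, where the members' medians were -0.70, 0.57 and 0.59. In DEX pool 3 the short class was at 0.15 and the members' median at 0.00. The non-member genes whose log2 levels followed the members' median most closely, chosen after their values were seen, were Tmem258, Uqcrh, Sec61b and Txndc17, with Pearson's r of 0.98 over the 12 libraries and transcripts of 547 to 981 bases. The somatotroph list (3 markers, 0 of them at 0 in all libraries), led by *Gh*, summed to 79009 to 221387 (control), 67713 to 104363 (DEX), 91916 to 220968 (1 week) and 150452 to 266036 (4 weeks). The lactotroph list (3 markers, 0 at 0), led by *Prl*, summed to 31602 to 79085, 48256 to 73472, 43716 to 111842 and 86495 to 119918 in the same order. Of the 13 marker lists, 6 had no overlap between DEX and 1 week recovery, with 1 week higher: corticotroph, led by *Pomc* (5558 to 9417 against 43869 to 286223), endothelial (2.82 to 7.85 against 24.1 to 155), pericyte and fibroblast (0.561 to 7.77 against 10.5 to 32.1), macrophage (14.2 to 18.3 against 21.1 to 51.4), B and plasma cell (0.414 to 1.06 against 2.42 to 61.2) and proliferation (1.57 to 2.62 against 9.67 to 38.9). The corticotroph sum was mostly *Pomc*, which DEX represses, with 4362 of 5558 in DEX pool 1 and 43612 of 43869 in 1 week pool 3. That sum therefore does not measure the share of corticotrophs. The B and plasma cell value of 61.2 was that of 1 week pool 1, with 2.42 and 3.00 in pools 2 and 3. At 4 weeks, unlike the members, the endothelial list (73.7 to 139) lay above control (6.53 to 61.9) without overlap. So did pericyte and fibroblast (39.0 to 58.0 against 4.09 to 25.4) and B and plasma cell (2.31 to 2.53 against 0.787 to 2.07). The corticotroph, macrophage and proliferation lists overlapped control there. No marker of any list was at 0 in all libraries. The part of transcript length or of other cells in the members' differences was not tested.

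**Figure D5:**
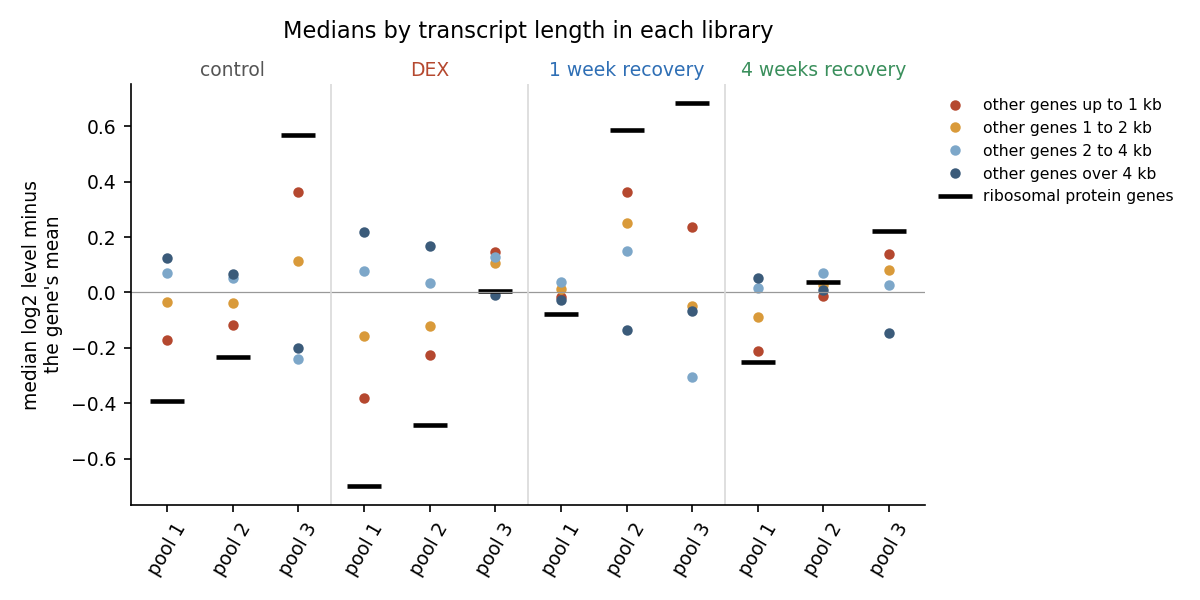
Median log2 level minus each gene's mean (y axis) by pool for the 74 ribosomal protein genes (bars) and for other genes in 4 classes of transcript length (circles). In DEX pool 1 the bar is at -0.70, other genes up to 1 kb at -0.38 and those over 4 kb at 0.22; in control pool 3 the order is turned, with 0.57, 0.36 and -0.20.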

How the data were processed

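RNA of sorted cells was made into cDNA with the SMART-V4 kit, which does not mark strand, and into libraries with Nextera XT. Per the study's methods, the authors trimmed reads (Trim Galore 0.6.5), aligned them to GRCm38 (STAR 2.7.1a), counted them per gene as reverse-stranded (featureCounts 2.0.0) and normalised with edgeR. The deposited signal values had been expected to be plain CPM, but are whole reads divided by TMM-scaled library sizes: of 271881 values above 0, 100% gave whole reads (largest distance from a whole number 6.29e-09). Values were tested as log2(value + 0.1) with limma 3.58.1 (R 4.3.3; lmFit and eBayes with trend) on all 12 libraries, for 24736 genes above 0.1 in at least 3 libraries, with Benjamini-Hochberg adjustment over all genes and a threshold of 0.05. edgeR 4.0.16 (quasi-likelihood) and DESeq2 1.42.0 were run on the recovered reads. The main limma fit and the edgeR fit were tested on simulated data, and DESeq2 and the other alternatives were not. Other alternatives were pseudocounts, filters, scalings, weights, a replicate block and leaving out libraries. Lengths, coordinates and overlaps are from GENCODE M21 (GRCm38). The members and lists were chosen with earlier results of these data known. Named members were those with the 3 largest and 3 smallest differences from control and the 3 highest and lowest levels per kb of each subunit, those with a special role or paralog, and Rpl23, Rpl38, Rpl4 and Rpl6, chosen after their values were seen. P-values measure the spread between pools of mice. Some genes are not reported here.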

Additional observations from a re-analysis of the deposited data

How the results depend on the processing

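Members were called under 3 alternatives. For 1 week recovery against DEX, array weights called 3 members of 79 (Rpl23, Rpl38 and Rps27l; 2.29% of all genes), the replicate block 1 (Rpl38, adjusted p = 0.0465 by limma; 0.562% of all genes) and DESeq2 4 (Rpl23, Rpl4, Rpl6 and Rps6; 2.32% of all genes), and DESeq2 called 1, Rpl4, among the 4 groups (adjusted p = 0.0204; 2.97% of all genes). The cause was not tested. Leaving out 1 library called 0 members in any comparison, and the median difference from control ranged from -0.59 to -0.09 in DEX, 0.23 to 0.72 at 1 week and -0.17 to 0.31 at 4 weeks. Array weights gave medians of -0.32, 0.26 and 0.23, and plain CPM -0.23, 0.19 and -0.11. Without the 4 pools numbered 3, an alternative chosen after seeing the data, these medians were -0.31, 0.56 and 0.19, with 0 calls. Samples with the same number correlated at -0.29 to 0.40 in their deviations from the group means over all genes, and at -0.20 to 0.71 over the members alone. Over the members, samples with different numbers correlated at -0.72 to 0.49. Same-number values for DEX and 1 week, DEX and 4 weeks, and 1 week and 4 weeks were 0.70, 0.71 and 0.55 for pool 1. In that order they were 0.57, 0.46 and 0.64 for pool 2 and -0.20, 0.16 and 0.57 for pool 3. Those with control were -0.07 to 0.49. These values are taken across genes, so a shift that all members share in a library does not enter the ranges over the members. They therefore cannot decide whether that shift, with pool 3 the highest and pool 1 the lowest in each group, marks a structure shared by pool number. The main fit did not pair the samples by number, and the block changed no other call. At an unadjusted p under 0.05 the block moved the members from 9 to 59 of 79 over the 4 groups (10.6% of all genes under the block), from 1 to 15 for DEX against control (7.85%) and from 5 to 25 for 1 week against control (4.62%). It moved them from 65 to 74 for 1 week against DEX (12.5%), from 2 to 23 for 4 weeks against DEX (11.1%) and from 3 to 19 for 4 weeks against 1 week recovery (6.13%). Array weights gave 54 of 79 for 4 weeks against DEX (21.2% of all genes). With the union of all exons as length, Rpl41 had 392 per kb in place of 1049.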
